A study of Mus musculus with 6 samples.

Results

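The elastic fibre genes followed here are elastin (Eln), the fibrillins Fbn1 and Fbn2, the fibulins Fbln1, Fbln2, Fbln5, Efemp1 and Efemp2, and the microfibril-associated glycoproteins Mfap2 and Mfap5. These 10 genes were chosen by name, and every probe set that the platform annotation names for one of them was used. The annotation named 16 probe sets, of 45037 on the array, for 8 of the 10 genes, each for that gene alone. Fbn1 and Efemp2 had no probe set named for them in the annotation used, so their transcripts were not analysed here. RNA came from MC3T3-E1 subclone 4, a clonal line of osteoblast precursors from mouse calvaria, grown in α-MEM with serum. Control cultures were left without ascorbic acid (AA), and the others received AA, 50 µg as the labels give it, until both were taken at day 5. Each group had 3 cultures, and each RNA was read on its own Affymetrix mouse expression array. The authors used the arrays to look for Rab GTPases, regulators of membrane traffic, that rise as AA drives these cells to differentiate. The line is 1 clone grown without other cell types, and nothing in the labels says whether the 3 cultures of a group were wells of one experiment or separate experiments. The main p-values measure the spread of the differences between same-numbered AA and control cultures, pooled in part over all probe sets. That spread may therefore be technical.

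An elastic fibre has a core of crosslinked elastin laid on a scaffold of microfibrils. The microfibrils are polymers of the fibrillins, large glycoproteins that also hold latent growth factors of the TGF-β and BMP families. Fibulins bind both elastin and fibrillins and help to place the one on the other, and the Mfap glycoproteins decorate the microfibrils. Lysyl oxidases crosslink the elastin once it is deposited. In bone, microfibrils lie in the collagen-rich matrix and fibrillin mutations alter the skeleton, while elastin itself is better known from arteries, lung and skin.

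Values are signals as deposited, on a linear scale, and log2 changes are AA over control on quantile-normalized log2 signals, so that a negative value is a lower level with AA. A probe set was called when its Benjamini-Hochberg adjusted p from limma, a linear model fitted over all probe sets, was under 0.05, and every p below is of that kind unless another test is named. The median signal over all probe sets lay between 14.9 and 17.7 on the 6 arrays. Signals below that are called dim here, because the table carries no detection calls. A probe set is called dim when its mean log2 signal over the 6 arrays is below the median of all probe sets. Probe sets differ in how well they bind, so levels of different genes are not compared. The Gapdh control probe sets at the 3′ and 5′ ends, whose ratio rises as RNA degrades, gave a ratio of 0.920 on control replicate 3 and of 0.791 to 0.809 on the other arrays. Of 12 osteoblast genes listed, 8 had a probe set of their own, and Runx2, Bglap, Bglap2 and Spp1 had none. Of the 8, 6 lay above the median, 3 rose with AA (Alpl, Ibsp and Ifitm5), 0 fell and 5 did not pass. Sp7, Col1a1 and Col1a2 were above the median but not called, and Dmp1 and Phex were dim on average. Over all genes by their brightest probe set, 4.06% were called higher. The 5 endothelial and 4 adipocyte markers measured were all dim on average, with summed signals of at most 39.1 and 17.7. Of 5 macrophage markers, Csf1r rose from a mean of 24.5 to 87.4, Lyz2 was above the median in both groups, and the pan-leukocyte gene Ptprc stayed between 0.411 and 3.92.

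Fbn2 and Fbln2 fell in AA cultures, with control levels 1.80-fold to 1.99-fold those with AA, and no elastic fibre gene was called higher. Of the 16 probe sets, 3 were called lower, both of Fbn2 and the bright one of Fbln2, and 13 did not pass. Over the whole array, 2.50% of probe sets were called lower and 2.71% higher. Of those above the median signal, 4.83% were called lower, and 6 of the 16 were of that kind. All 3 AA arrays lay below all 3 control arrays on 6 of the 16 probe sets, against 11.8% of all probe sets. The median log2 change was -0.41 over the 16 and -0.01 over the array. The 6 bright members taken alone had a median log2 change of -0.65, a larger fall than the -0.41 of all 16. None of the 10 probe sets not above the median signal passed. With 50 added to every signal, the log2 changes of those 10 shrank to between -0.23 and 0.06. At an unadjusted limma p under 0.05, 7 of the 16 were lower and 0 higher, beside 4236 lower and 3864 higher of all 45037. The methods' paired test gave 4 of the 16 lower and 0 higher at that level, beside 2827 and 2612 of all. The 2 settings that left every probe set of the array uncalled also ended these 3 calls: moderation of the variances with no trend over signal gave adjusted p of 0.376 to 0.388, and the methods' paired test after adjustment gave 0.291 to 0.377. In RNA of whole cultures, fewer cells of a type and less RNA per cell cannot be told apart.

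**Figure D1:**
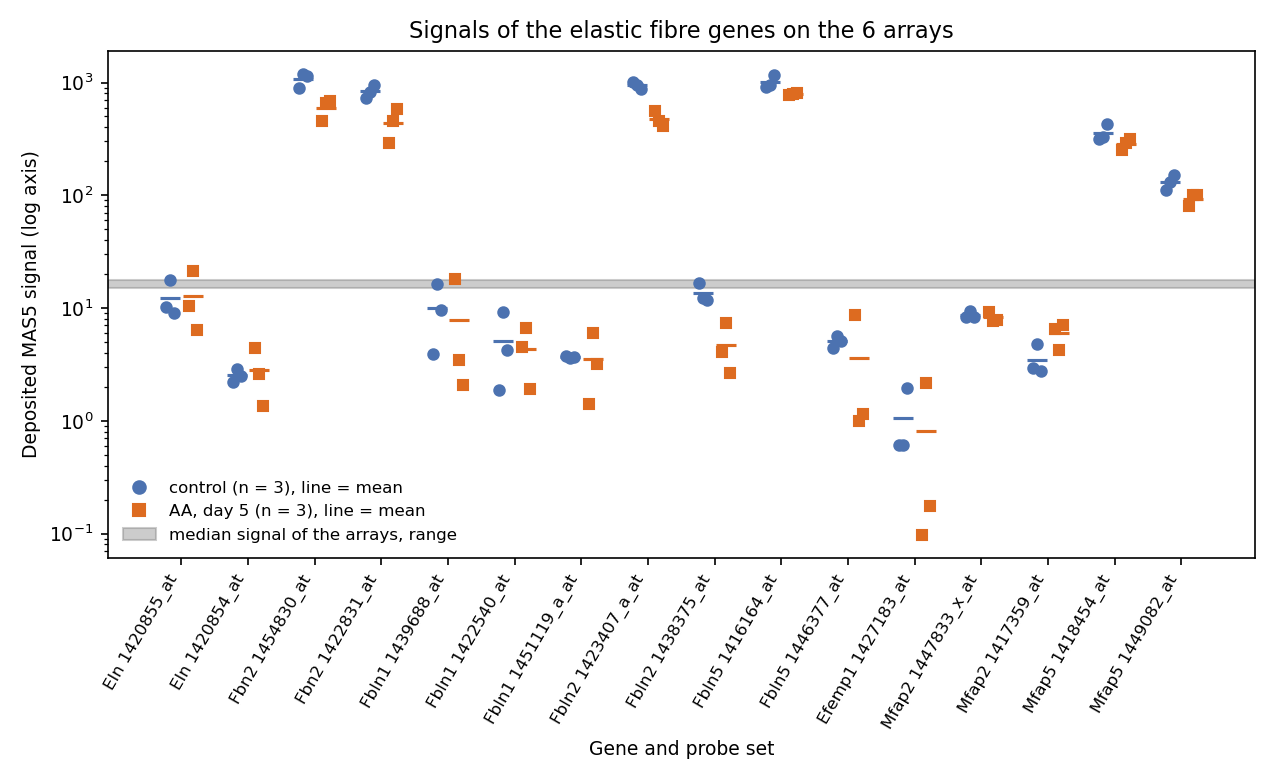
Deposited signal (log axis) of the 16 probe sets of 8 elastic fibre genes, with circles for the 3 control cultures, squares for the 3 AA cultures, short lines for group means and a grey band for the range of the arrays' median signal. The probe sets of Fbn2 and Mfap5 and the brighter ones of Fbln2 and Fbln5 lie above the band, and the other 10 lie at or below it in most cultures.

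Fbn2 encodes fibrillin-2, the fibrillin best known from developing tissues, which builds microfibrils beside fibrillin-1. Its brighter probe set (1454830_at) read 893, 1195 and 1136 in control replicates 1 to 3 and 453, 656 and 683 in AA replicates 1 to 3. The groups did not overlap, and AA replicate 1 was the lowest array. The means were 1075 ± 160 (SD, n = 3) and 597 ± 126 (SD, n = 3), a log2 change of -0.85 (standard error, SE, 0.08, 95% interval -1.04 to -0.67, adjusted p = 0.00115). Controls were thus 1.80-fold higher. The second probe set (1422831_at) read 729, 816 and 953 in control and 290, 454 and 577 in AA cultures. Again no AA culture reached the lowest control, and AA replicate 1 was lowest. Its log2 change was -0.95 (SE 0.12, 95% interval -1.22 to -0.68, adjusted p = 0.00373), a 1.93-fold higher level in controls. With each replicate number left out in turn, the brighter probe set kept log2 changes of -0.91 to -0.80 and the second -1.07 to -0.77, and all passed. Without replicate 3, whose control array had the highest Gapdh ratio, the values were -0.91 and -1.07.

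The Fbn2 calls depended on how the spread was estimated. Without the replicate number as a block, the adjusted p rose to 0.0189 and 0.0364. In that unpaired fit the calls were lost on both Fbn2 probe sets without control replicate 2 (adjusted p = 0.0835 and 0.116), without control replicate 3 (0.0630 and 0.115) and without AA replicate 2 (0.0532 and 0.105).

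Fbln2 encodes fibulin-2, a calcium-binding glycoprotein of microfibrils and basement membranes. Its bright probe set (1423407_a_at) read 1018, 952 and 872 in control and 559, 454 and 410 in AA cultures. The groups were far apart, and AA replicate 1, the lowest array for Fbn2, was here the highest of the 3 AA arrays. The means were 948 ± 73.0 (SD, n = 3) and 474 ± 76.8 (SD, n = 3), and the log2 change was -0.99 (SE 0.09, 95% interval -1.19 to -0.79, adjusted p = 0.000801). Controls were 1.99-fold higher. Leaving out any single replicate number or array gave log2 changes of -1.12 to -0.88 and adjusted p of 0.00029 to 0.0256, all past the threshold. The other Fbln2 probe set (1438375_at) was dim, at 16.8, 12.3 and 11.8 in control and 4.09, 7.35 and 2.63 in AA cultures. It too had no overlap, but its log2 change of -1.69 did not pass (SE 0.53, adjusted p = 0.125). With 50 added to every signal that value shrank to -0.23, while that of the bright probe set was -0.92.

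The stretch before the annotated start of Fbln2, called in every limma alternative with a variance trend, is shown beside that of its relative Fbln5, which did not pass. Both come from RefSeq on GRCm38.p6. The set of windows used here covers 7 of the 10 genes, and Eln, Fbn2 and Mfap5 are not among them. Fbln5 has 2 annotated starts there, and the window farther upstream is the one printed. Each is given 5′ to 3′ on the gene's strand. Capitals mark the matches to the motifs searched, with CCGCCC being the GC box read on the opposite strand.
Fbln2, chr6:91212514-91212763, + strand: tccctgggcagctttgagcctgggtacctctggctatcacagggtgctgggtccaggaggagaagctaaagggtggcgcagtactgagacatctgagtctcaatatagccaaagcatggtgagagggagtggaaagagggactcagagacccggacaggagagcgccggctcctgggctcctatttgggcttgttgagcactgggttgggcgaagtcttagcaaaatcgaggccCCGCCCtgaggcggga
Fbln5, chr12:101819120-101819369, - strand: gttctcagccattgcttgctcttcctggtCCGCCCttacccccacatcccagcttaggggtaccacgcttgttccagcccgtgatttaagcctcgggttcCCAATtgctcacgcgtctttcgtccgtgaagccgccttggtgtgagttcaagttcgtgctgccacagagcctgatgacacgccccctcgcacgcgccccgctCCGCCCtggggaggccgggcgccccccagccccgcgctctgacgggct

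The motifs below were searched on both strands of these 250 bases. The Fbln2 window held 1 GC box (GGGCGG, found in 32.7% of all 32851 windows of that length). The printed Fbln5 window held 2 GC boxes and 1 CCAAT box (CCAAT, in 33.8% of windows), while the window of its other start (chr12:101818485-101818734) held neither. None of the 3 windows held a TATA box (TATAAA, 12.4%), an AP-1 site (TGANTCA, 6.75%), a TEAD site (GGAATG, 12.6%) or a CArG box (1.47%). These are matches of letters only, and the arrays carry no measure of binding there.

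Fbln5 and Mfap5 were lower in AA cultures by smaller amounts that did not pass. Fbln5 encodes fibulin-5, which binds tropoelastin, lysyl oxidase-like enzymes and cell integrins and is needed for elastic fibre assembly. Its bright probe set (1416164_at) read 917, 956 and 1167 in control and 778, 798 and 815 in AA cultures. The 3 AA arrays lay close together below every control, and control replicate 3 stood above the others. The means were 1014 ± 134 (SD, n = 3) and 797 ± 18.4 (SD, n = 3), with a log2 change of -0.33 (SE 0.08, 95% interval -0.53 to -0.14, adjusted p = 0.0655). It passed in the fit of the probe sets above the median signal (adjusted p = 0.0420). Without replicate 3 the log2 change was -0.25 (adjusted p = 0.194). The second Fbln5 probe set (1446377_at) was dim, at 0.988 to 8.72 over the 6 arrays, with a log2 change of -1.27 (adjusted p = 0.494).

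Mfap5, also known as MAGP-2, is a small glycoprotein bound to fibrillin microfibrils. Its brighter probe set (1418454_at) read 314, 327 and 426 in control and 250, 291 and 316 in AA cultures. The highest AA array and the lowest control array overlapped by a narrow margin. The log2 change was -0.27 (SE 0.10, 95% interval -0.49 to -0.05, adjusted p = 0.186). The second probe set (1449082_at) read 110, 131 and 152 in control and 80.8, 100 and 99.7 in AA cultures, without overlap. Its log2 change was -0.46 (SE 0.13, adjusted p = 0.0886). Control replicate 3 was the highest of the 6 arrays on both, and without replicate 3 the log2 changes were -0.20 and -0.38.

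**Figure D2:**
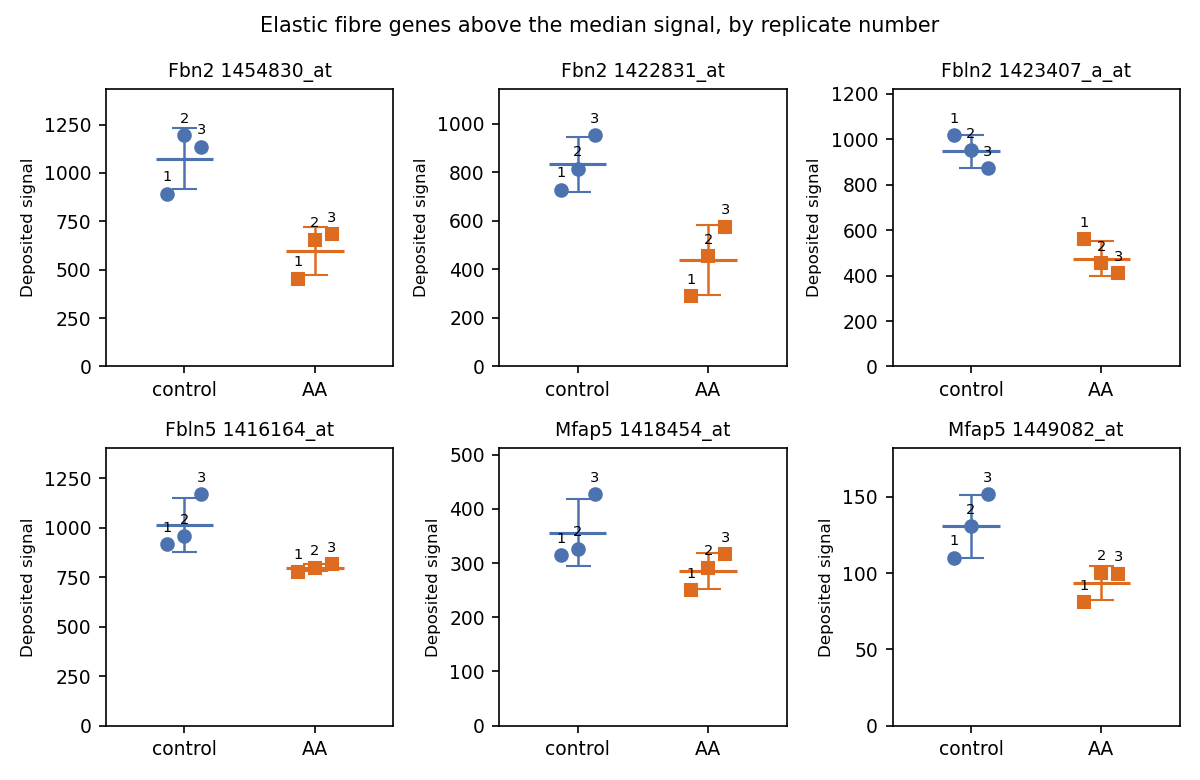
Deposited signal (linear axis from 0) of the 6 probe sets above the median signal, with each culture's replicate number beside its point, group means as lines and SD as bars (n = 3). Fbn2 and Fbln2 separate widely between control and AA, and control replicate 3 is the highest point for Fbln5 and both Mfap5 probe sets.

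Eln, Fbln1, Efemp1 and Mfap2 were read only by probe sets that were dim on average, and none of their 8 probe sets passed. Eln, the precursor of the fibre's core, had a brighter probe set (1420855_at) at 10.1, 17.8 and 8.97 in control and 10.3, 21.3 and 6.44 in AA cultures. Replicate 2 was the highest array of each group, and the groups overlapped fully. The log2 change was -0.12 with a 95% interval of -1.03 to 0.79 (adjusted p = 0.925). The second Eln probe set (1420854_at) read 2.22, 2.88 and 2.48 in control and 4.46, 2.61 and 1.36 in AA cultures, with the control values inside the AA range (log2 change -0.04, adjusted p = 0.990).

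Mfap2, or MAGP-1, the closest relative of Mfap5, had signals of 7.69 to 9.36 over all 6 arrays on its brighter probe set (1447833_x_at), with a log2 change of -0.14 (adjusted p = 0.922). Its other probe set (1417359_at) read 2.93, 4.79 and 2.74 in control and 6.51, 4.23 and 7.14 in AA cultures. It was the single probe set of the 16 with a positive log2 change (0.72, adjusted p = 0.625), and its groups overlapped. Fbln1, the founding fibulin of basement membranes and elastic tissue, had 3 probe sets between 1.41 and 18.1, with log2 changes of -0.79 to -0.16. Efemp1, or fibulin-3, read 0.614, 0.615 and 1.96 in control and 0.0978, 2.18 and 0.174 in AA cultures, so that both ends of its range lay in the AA group. It had a log2 change of -1.50 and a 95% interval of -4.38 to 1.38. With 50 added to every signal the values of Efemp1 and of the dim Fbln5 probe set came to -0.01 and -0.05.

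**Figure D3:**
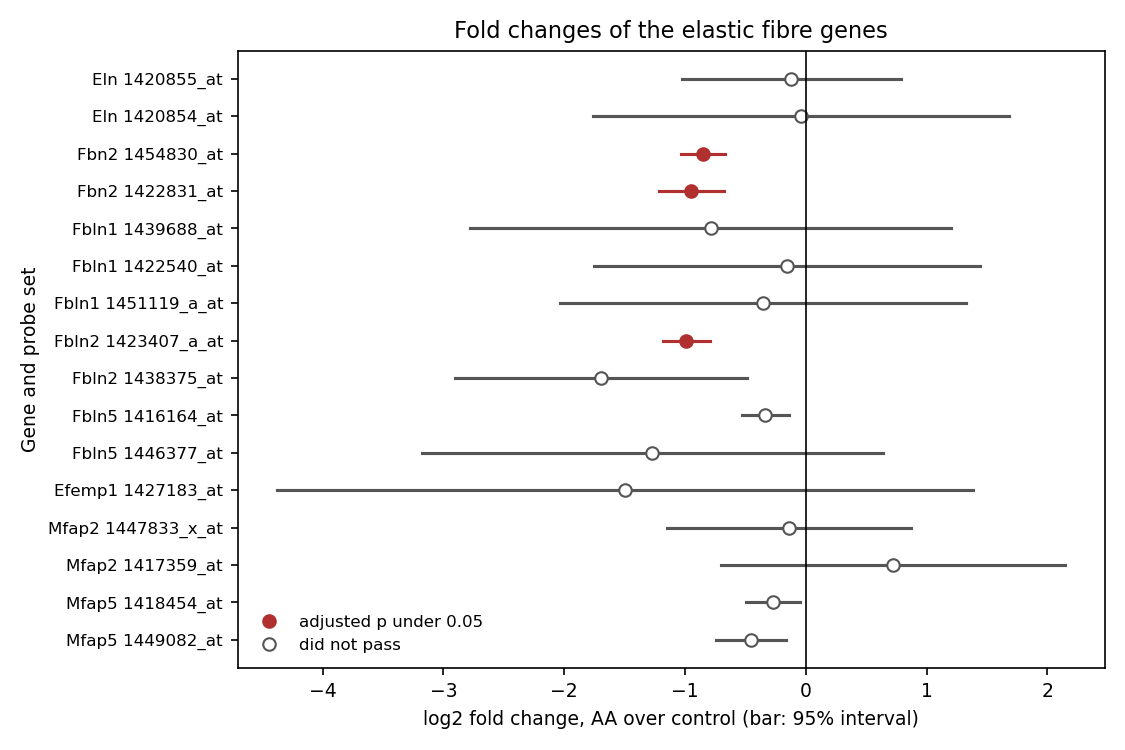
Log2 change between AA and control for the 16 probe sets, with 95% intervals from limma and filled points for an adjusted p under 0.05. The 3 filled points, for Fbn2 and Fbln2, lie between -0.99 and -0.85, and the intervals of Eln, Fbln1, Efemp1 and Mfap2 all cross 0.

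Genes that work with these proteins were called in both directions. Of 49 partner genes listed, 45 had a probe set named for them alone. By the brightest of each, 7 were higher, 4 lower and 34 did not pass. Over all 18193 genes taken the same way, 4.06% were higher and 3.83% lower. The median log2 change of the 45 was 0.01, against -0.02 for all genes.

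The enzymes that crosslink elastin and collagen held 3 genes called higher of 5 measured, and 0 called lower. Lox, the main lysyl oxidase, read 3061, 2743 and 2715 in control and 5759, 5029 and 4167 in AA cultures, with no overlap (log2 change 0.72, SE 0.07, adjusted p = 0.00105). It was called on 2 of its 3 probe sets. Loxl4 rose from 114 to 204 (log2 change 0.84, adjusted p = 0.0259) and Loxl3 from 394 to 520 (0.44, adjusted p = 0.0336). Loxl4 was called on 1 of its 2 probe sets, and the other had a log2 change of 0.56. Without replicate 2 neither Loxl4 nor Loxl3 passed (adjusted p = 0.115 and 0.147), nor without replicate 1 (0.0637 and 0.121), nor with 50 added to every signal (0.0750 and 0.0659). Loxl3 was also lost after median centring (adjusted p = 0.139). Loxl1, the relative most tied to elastin, went the other way without passing, at 108 and 74.3 (log2 change -0.55, adjusted p = 0.120). The transglutaminase Tgm2, which crosslinks proteins by another bond, did not pass either, at 116 and 73.7 with no overlap (-0.69, adjusted p = 0.0762).

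Adamtsl3 and Adamtsl4, secreted ADAMTS-like proteins without protease activity, fell, and ADAMTSL4 is known to bind fibrillin-1. Adamtsl3 read 814, 1270 and 1005 in control and 491, 576 and 591 in AA cultures (log2 change -0.86, SE 0.10, adjusted p = 0.00317). Adamtsl4 read 252, 375 and 334 in control and 131, 184 and 185 in AA cultures (log2 change -0.91, SE 0.10, adjusted p = 0.00201). In both, every AA array was below every control, and AA replicate 1 was lowest, as for Fbn2. The 5 other ADAMTS and ADAMTS-like genes did not pass.

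None of the 4 genes of latent TGF-β binding proteins, relatives of the fibrillins, passed in either direction. Ltbp1, at 916 and 765, had a log2 change of -0.25 (adjusted p = 0.182), and Ltbp3, at 792 and 730, one of -0.11 (adjusted p = 0.549). Of 7 other fibre-associated genes, Emilin2, an elastin-interface glycoprotein, rose from 152 to 256 (log2 change 0.78, adjusted p = 0.00407). Its relative Emilin1, found at the border of elastin and microfibrils, was at 841 and 713 (-0.23, adjusted p = 0.160).

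Among 4 proteoglycan partners, versican (Vcan), which binds fibrillins and fibulins, rose from 346 to 588 (log2 change 0.81, adjusted p = 0.00286), on 3 of its 8 probe sets, whose log2 changes ran from -0.38 to 2.27. Decorin (Dcn) rose from 4411 to 6508 (0.47, adjusted p = 0.0202), a call lost without replicate 2 (adjusted p = 0.110) and after median centring (adjusted p = 0.146). Dcn was called on 1 of its 2 probe sets, and the other had a log2 change of 0.40. Of 7 elastin-degrading enzymes, cathepsin K (Ctsk) rose from 1021 to 1798 (0.78, adjusted p = 0.000897) and cathepsin L (Ctsl) fell from 1422 to 1060 (-0.44, adjusted p = 0.0137). The Ctsl call was on 1 of its 2 probe sets, and the other had a log2 change of -0.47. This call was lost without replicate 2 (adjusted p = 0.0749) and after median centring (adjusted p = 0.0531). Of 9 cell receptor genes, the integrin subunit Itga8 fell from 699 to 475 (-0.54, adjusted p = 0.0191), a call lost without replicate 2 (adjusted p = 0.133). Its other probe set was not called and had a log2 change of 0.24. Neither of the 2 maturation genes measured, Furin and Ppib, passed.

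**Figure D4:**
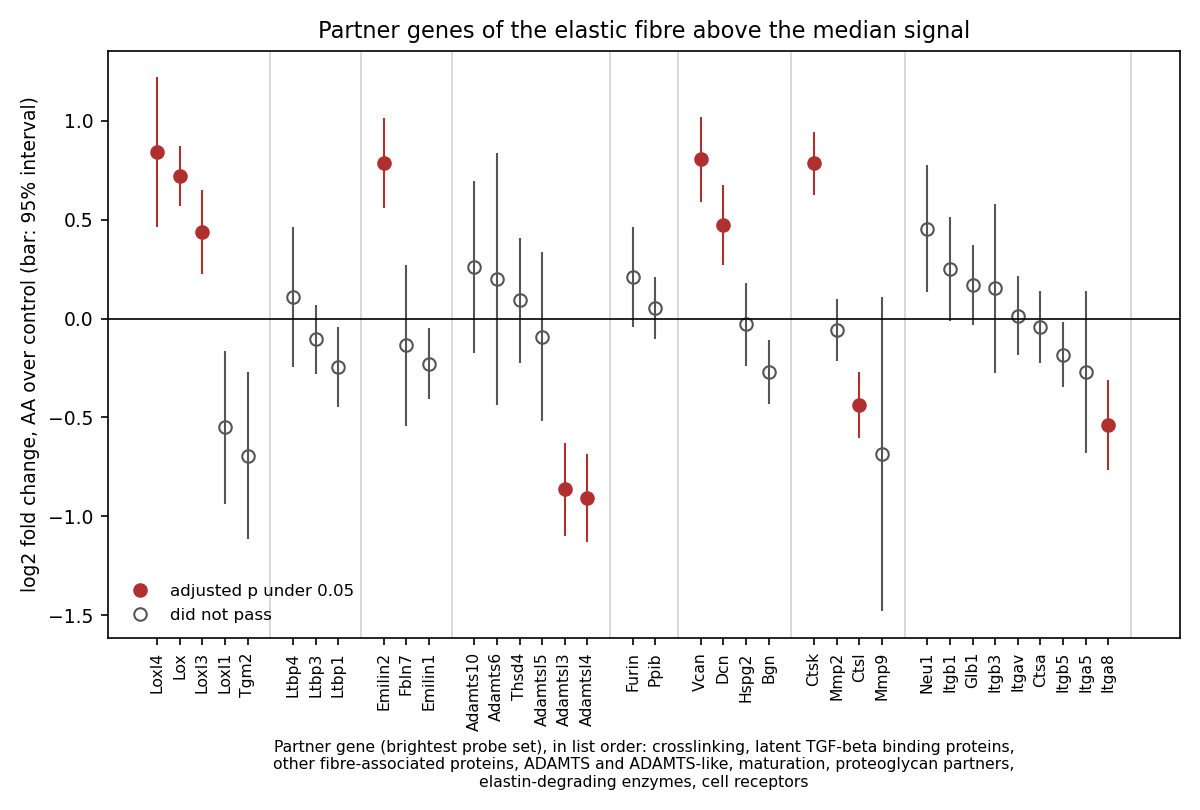
Log2 change between AA and control of the 36 partner genes above the median signal, 1 point per gene by its brightest probe set, in 8 lists separated by grey lines, with 95% intervals from limma and filled points for an adjusted p under 0.05. Lox, Loxl3 and Loxl4 lie above 0 and Adamtsl3 and Adamtsl4 below it, near -0.9.

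Smooth muscle and myofibroblast genes, markers of matrix-making cells rich in elastin and fibrillin, were called in both directions. Of 8 measured, 2 fell, 1 rose and 5 did not pass. Over all genes by their brightest probe set, 3.83% were lower and 4.06% higher. The actin-binding gene Tagln fell from 2341 to 1524 (log2 change -0.67, adjusted p = 0.00405) and the smooth muscle actin Actg2 from 2378 to 1660 (-0.57, adjusted p = 0.00569), while Smtn rose from 274 to 440 (0.72, adjusted p = 0.00970). Acta2 was at 7432 and 7403, and the defining smooth muscle genes Myh11 and Cnn1 were dim, at 0.906 to 12.6 and 0.830 to 2.53. The summed signal of the 8 ran from 11652 to 13224 in control and from 10485 to 11796 in AA cultures. Any relation of these genes to the fall of Fbn2 and Fbln2 was not tested.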

How the data were processed

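RNA of 3 control and 3 AA cultures was read on 6 Affymetrix mouse arrays. The authors deposited 1 intensity per probe set and array on a linear scale. The submitters' processing notes name MAS5, version not given in the sources used here, and the trimmed mean (2% off each end) was the same on every array. The methods' quantile normalization and GC-RMA are not visible in these intensities. The genome build is not given in the sources used here.

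Of 45101 probe sets, 64 control probe sets were set aside. The other 45037 were quantile-normalized on the log2 scale and fitted across all probe sets with limma 3.58.1 in R 4.3.3, with condition, the replicate number as a block (the methods name paired tests) and a variance trend. The Benjamini-Hochberg adjustment covered all probe sets. The fit was tested on simulated arrays. GEO's platform annotation gave 1 symbol to 34945 probe sets, several to 932 and none to 9160. Every probe set of the members is reported. Each partner gene is represented by its brightest probe set, and up to 4 per direction of each list that passed are named, by smallest p. Members, partner lists and markers were chosen with earlier results of these data known. Alternatives were no block, the deposited scaling, median centring, 50 added, bright probe sets only, no variance trend, the methods' paired t-test, a gene's probe sets averaged, and each replicate number or array left out. The promoter motifs were chosen after the data were seen. No detection calls are in the table, so no fold is a bound, and the number of arrays limits precision.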

Additional observations from a re-analysis of the deposited data

How the results depend on the processing

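The replicate numbers paired the cultures weakly at most by their data. Over all probe sets, deviations from the group means of same-numbered cultures correlated at 0.00 to 0.02, and those of differently numbered ones at -0.02 to 0.01. Above the median signal the same-numbered ones were at 0.03 to 0.18 and the differently numbered ones at -0.14 to 0.05. The fit with no replicate block called 1089 higher and 1039 lower, against 1219 and 1124 with it, and 3 member probe sets, 7 partner genes higher and 4 lower were called in both fits. With 50 added to every signal 788 were higher and 655 lower. The signals as deposited gave 1148 and 1212, and median centring 842 and 1291, so the larger direction depends on the scaling. Both median centring and 50 added left 5 partner genes higher in place of 7. When variances were moderated with no trend over signal, limma called 0 probe sets, members and partner genes included, while at an unadjusted p under 0.05 it had 2587 higher and 2616 lower, 5 of the 16 member probe sets lower, and 5 partner genes higher and 4 lower. After Benjamini-Hochberg the methods' paired t-test also called 0. At its unadjusted p under 0.01 it gave 706 higher and 736 lower, 2 member probe sets lower (those of Fbln2 and the brighter of Fbn2) and 3 partner genes higher and 1 lower.

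Leaving out a replicate number or, unpaired, an array gave 380 to 1169 probe sets higher and 339 to 994 lower, 1 to 3 member probe sets lower (1 to 2 genes), and 4 to 7 partner genes higher and 1 to 5 lower. With the block, 556 higher, 410 lower and 4 and 2 partner genes were called without replicate 2. Unpaired, member probe sets fell to 1 without control replicate 2, control replicate 3 or AA replicate 2, and all probe sets to 496 and 371, 742 and 561, and 380 and 339; without AA replicate 1 they came to 468 and 488, and without AA replicate 3 to 632 and 548. Unpaired, 4 and 2 partner genes were called without control replicate 2 or AA replicate 1, and 4 and 1 without AA replicate 2. No Fbn2, Fbln2 or Mfap5 probe set and no bright Fbln5 probe set changed direction in any alternative. Dim ones did: the fainter Eln probe set came to 0.0046 with 50 added, and with replicates or arrays left out the Eln probe sets ran from -0.56 to 0.26 and from -0.50 to 0.41, and 2 of Fbln1 from -0.81 to 0.36 and from -0.94 to 0.26. All 16 probe sets are named for 1 gene, so leaving out shared ones changed nothing, and averaging a gene's probe sets again called Fbn2 and Fbln2.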

Other observations

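The 3 cultures of each group differed in their osteoblast genes, and Fbn2 and Fbln2 put them in different orders. AA replicate 1 had the highest signal of Ifitm5 (3729, against 2017 and 1704 in AA replicates 2 and 3), of Alpl (426, against 287 and 304), of Ibsp (5583, against 4719 and 4118) and of Lox (5759, against 5029 and 4167). It also had the lowest signal of both Fbn2 probe sets, of Adamtsl3 and of Adamtsl4. For Fbln2 it had the highest AA signal, 559 against 454 and 410. Among the controls, replicate 1 was likewise highest for Ifitm5 (226, against 87.7 and 61.1), Alpl, Ibsp, Lox and the bright Fbln2 probe set. It was likewise lowest for both Fbn2 probe sets, Adamtsl3 and Adamtsl4. Between same-numbered cultures, the log2 change of replicate 1 was the smallest for Ifitm5 (3.96, against 4.54 and 4.77) and Ibsp (1.14, against 1.70 and 1.75). For Alpl (1.70, against 1.48 and 1.37) and Lox (0.77, against 0.73 and 0.65) it was the largest. With 3 cultures a group no relation between these genes was tested.

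The cartilage collagen gene Col2a1 rose from 138 to 306 (log2 change 1.18, adjusted p = 0.00352 from limma), with every AA array above every control, while the cartilage matrix genes Acan, Matn1 and Col10a1 were dim. The cartilage regulator Sox9 did not pass, at 220 in control and 169 in AA cultures with no overlap (log2 change -0.33, adjusted p = 0.283), nor did Matn3, at 25.0 and 31.2. Col2a1 was the 1 gene called of 6 chondrocyte markers. None of the 3 tendon markers was called, with summed signals of 197 to 231 in control and 232 to 267 in AA cultures. Csf1r, listed as a macrophage marker, rose with no overlap, from 23.9 to 25.0 in control to 74.6 to 104 in AA cultures, while the macrophage genes Adgre1 and Cd68 were dim in both groups.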
